A study of Mus musculus with 10 samples.

Results

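The genes that make cholesterol, sense it and move it into and out of cells were followed in primary mouse keratinocytes, before and after calcium-induced differentiation and with 2 treatments. The list held 35 genes, chosen by name for their step in the pathway but with earlier results of these data known. It was read in 4 steps: mevalonate, sterol, regulation and transport. A total of 33 of the 35 genes were measured among 18194 genes, each through probe sets annotated to that gene alone. Acat2, which joins acetyl units at the start of the pathway, and Nr1h2, an oxysterol receptor, had no such probe set.

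The cells came from the epidermis of newborn mice, and each of the 10 samples was 1 Affymetrix expression array. The 2 undifferentiated samples were kept in low calcium medium, and the 4 differentiated samples were held in high calcium medium for 2 days. The 2 A-C/EBP samples were differentiated in the same way while expressing A-C/EBP, a dominant negative protein that blocks DNA binding by C/EBP transcription factors, from a tetracycline-controlled transgene switched on in keratinocytes by removing doxycycline. The 2 5-AZA samples were differentiated in cultures to which 5-AZA (5-azacytidine), which lowers DNA methylation, was added within hours of seeding. Doxycycline was removed the day before the change to high calcium, so that both treatments began before differentiation. Wild type animals were of the FVB strain; whether the differentiated control samples carried the transgene or received doxycycline was not given in the sources used here, and transgene expression was not analysed here. No source said that the replicates of a condition came from separate animals or cultures, so p-values measure the spread between these arrays, which may be technical. All values below are RMA log2 levels, so that a difference of 1 is a 2-fold change, and levels of different genes are not set against each other because each probe has its own response.

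Cholesterol is built from acetyl units. The mevalonate steps lead to farnesyl diphosphate, which can leave the pathway for isoprenoids or go on through squalene and lanosterol to cholesterol. SREBP transcription factors switch these genes on when sterol is scarce: SCAP escorts SREBP out of the endoplasmic reticulum, and INSIG proteins hold it back when sterol is plentiful. Oxysterols work the other way through LXR receptors, which raise the exporters ABCA1 and ABCG1. In epidermis, cholesterol is a main lipid of the permeability barrier laid down by differentiating keratinocytes.

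Promoter sequence for these genes was read from RefSeq (GRCm38.p6), as the 300 bases from 250 before to 50 after an annotated start. The table held 38 promoters for 29 of the 35 genes; Fdps, Fdft1, Sqle, Stard4, Npc1 and Abcg1 were not in it. Both strands were searched for short motifs. The core of the sterol response element read by SREBP, TCACNCCAC, was found in 1 of the 38 promoters, that of Hmgcs1, and in 1.24% of all 32851 promoters. CCAAT, the box bound by NF-Y, was in 23 of 38 promoters (60.5%) of 22 genes, against 37.4% of all promoters, and GGGCGG, the box bound by Sp1, was in 27 of 38 (71.1%) of 23 genes, against 35.7%. The full C/EBP palindrome TTGCGCAA was in none of the 38 and in 0.183% of all promoters, while TTGCNNAA, which includes that palindrome, was in those of Ch25h, Dhcr7, Npc2 and Nsdhl, 4 of 38 (10.5%), against 10.8%. TGACGTCA, bound by CREB, was in 1 promoter, that of Ch25h, against 1.79%, and the AP-1 site TGAGTCA was in those of Dhcr7 and Msmo1 (5.26%), against 5.2%. These matches are letters in a window and were not tested as binding sites.

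The promoters printed here are those of the 4 genes that passed the test under a treatment and that of the single gene with the sterol element core. Capitals mark every match to TCACNCCAC, TTGCNNAA, TGACGTCA, TGAGTCA or CCAAT on either strand, so that CCAAT on the minus strand reads ATTGG. Idi1 and Idi2, neighbours that encode 2 forms of isopentenyl diphosphate isomerase, lie at chr13:8885356-8885655 (plus strand) and chr13:8952613-8952912 (plus strand). Sc5d lies at chr9:42264251-42264550 (minus strand), Ch25h at chr19:34475099-34475398 (minus strand) and Hmgcs1 at chr13:119690101-119690400 (plus strand). The Idi1 window held 2 CCAAT boxes and the Idi2 window held none of these motifs. That of Sc5d held 1 CCAAT box, that of Ch25h held 1 TTGCNNAA and 1 TGACGTCA, and that of Hmgcs1 held 4 CCAAT boxes with the sterol element core between them.
Idi1: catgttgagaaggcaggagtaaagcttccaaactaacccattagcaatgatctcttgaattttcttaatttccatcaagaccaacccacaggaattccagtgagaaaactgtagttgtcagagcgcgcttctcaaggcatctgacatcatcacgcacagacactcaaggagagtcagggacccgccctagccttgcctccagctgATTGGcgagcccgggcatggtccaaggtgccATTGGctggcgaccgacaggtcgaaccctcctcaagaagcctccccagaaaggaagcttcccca
Idi2: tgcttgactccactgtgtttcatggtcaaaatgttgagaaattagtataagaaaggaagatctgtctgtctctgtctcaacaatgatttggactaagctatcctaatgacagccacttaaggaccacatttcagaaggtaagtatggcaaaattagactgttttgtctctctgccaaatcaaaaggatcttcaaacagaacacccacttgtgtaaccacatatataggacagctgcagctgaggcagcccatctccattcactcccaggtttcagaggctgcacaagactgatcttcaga
Sc5d: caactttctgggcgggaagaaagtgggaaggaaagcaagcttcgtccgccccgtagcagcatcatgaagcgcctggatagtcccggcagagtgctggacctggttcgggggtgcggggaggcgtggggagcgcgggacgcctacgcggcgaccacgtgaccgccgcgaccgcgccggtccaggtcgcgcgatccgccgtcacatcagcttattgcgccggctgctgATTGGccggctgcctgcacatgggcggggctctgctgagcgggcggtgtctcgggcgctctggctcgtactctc
Ch25h: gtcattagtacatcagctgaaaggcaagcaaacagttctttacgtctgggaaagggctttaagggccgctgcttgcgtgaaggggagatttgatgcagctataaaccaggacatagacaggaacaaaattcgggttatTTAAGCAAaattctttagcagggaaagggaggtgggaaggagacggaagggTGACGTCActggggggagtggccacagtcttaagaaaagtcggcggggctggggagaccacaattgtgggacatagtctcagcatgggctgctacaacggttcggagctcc
Hmgcs1: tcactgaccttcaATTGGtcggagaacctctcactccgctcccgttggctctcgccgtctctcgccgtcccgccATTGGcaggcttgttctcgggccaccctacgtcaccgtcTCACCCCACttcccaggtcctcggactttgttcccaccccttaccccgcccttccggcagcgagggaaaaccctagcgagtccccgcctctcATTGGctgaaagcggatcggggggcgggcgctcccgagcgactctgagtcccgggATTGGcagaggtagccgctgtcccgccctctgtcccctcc

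Upon differentiation most synthesis genes were higher, with Idi2, Tm7sf2, Idi1 and Dhcr7 in front. Of the 33 measured genes 14 rose, 3 fell and 16 did not pass the test (limma, Benjamini-Hochberg adjusted p under 0.05 over 18194 genes), where 6.64% of all genes rose and 9.13% fell. The median difference, differentiated minus undifferentiated, was 0.50 over the 33 genes and -0.01 over all genes. Of the 14 that rose, 12 belonged to the 20 genes of the mevalonate and sterol steps, of which 12 rose, 1 fell and 7 did not pass. All 4 differentiated arrays lay above both undifferentiated arrays for 21 of the 33 genes and below them for 3, against 15.1% and 19% of all genes. An unadjusted p under 0.05 was reached by 23 of the 33 genes (69.7%) and by 25.8% of all genes. Means were higher by more than 0.5 for 17 genes and lower by more than 0.5 for 3, against 7.23% and 8.87%. The plot of synthesis genes by array shows this separation for most panels.

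**Figure D1:**
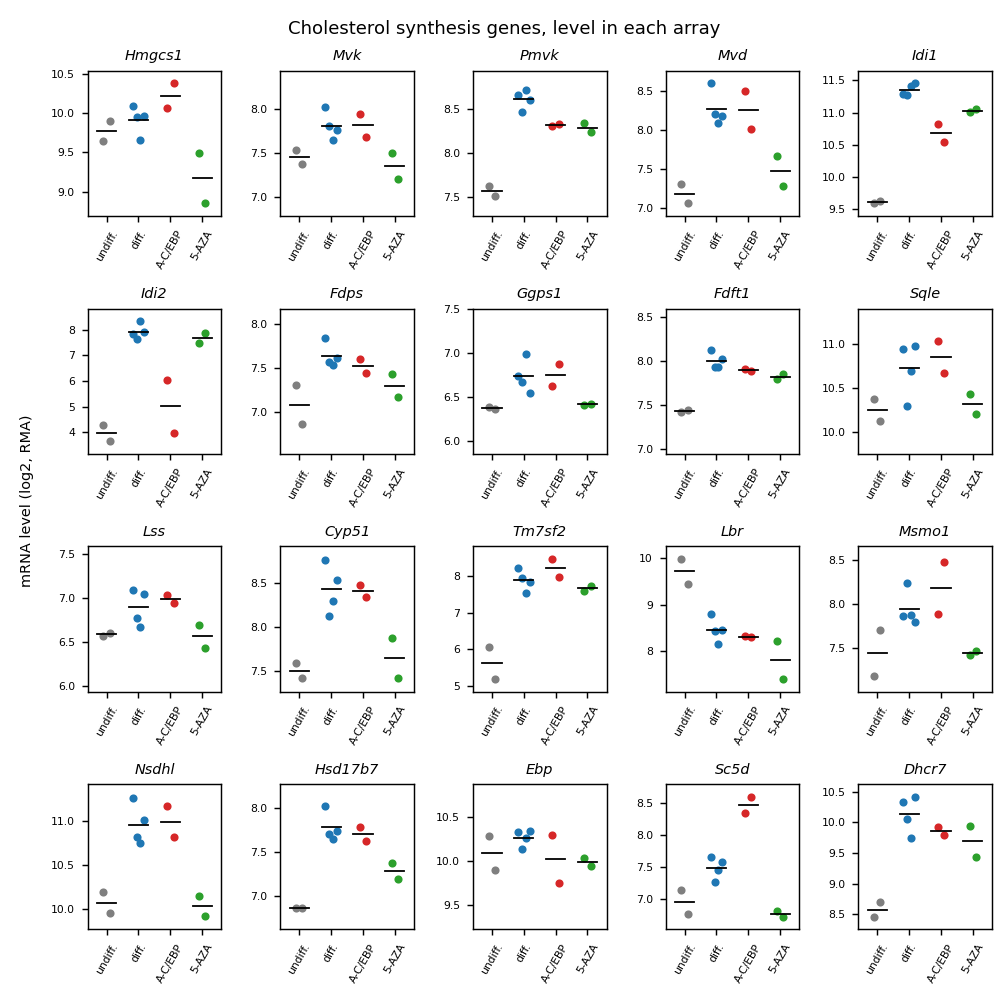
Level (log2, RMA) of each of the 20 measured genes of the mevalonate and sterol steps in each array. Points are single arrays (2 undifferentiated, 4 differentiated, 2 A-C/EBP, 2 5-AZA), bars are condition means, and each panel has its own axis that does not start at 0. The 4 differentiated arrays lie above both undifferentiated arrays in 16 panels and below them in 1, Lbr, and the mean with 5-AZA lies below the differentiated mean in all 20 panels.

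In the mevalonate steps 5 of 8 measured genes rose, none fell, and the median difference was 0.80. Idi1 encodes the isomerase that turns isopentenyl into dimethylallyl diphosphate, and its level was 9.59 and 9.63 in the undifferentiated arrays, 11.29, 11.27, 11.41 and 11.46 in the differentiated arrays, 10.83 and 10.55 under A-C/EBP and 11.01 and 11.05 under 5-AZA. The undifferentiated and differentiated arrays did not overlap, and Idi1 rose 3.36-fold with differentiation (1.75 ± 0.10 (SE), adjusted p = 1.21e-05). Idi2, the second isomerase, measured 4.30 and 3.66 in the undifferentiated arrays, 7.82, 7.64, 8.33 and 7.91 in the differentiated arrays, 6.04 and 3.98 under A-C/EBP and 7.49 and 7.87 under 5-AZA. It rose 15.4-fold (3.95 ± 0.46 (SE), adjusted p = 0.000341), with both undifferentiated arrays and the second A-C/EBP array below the median probe set of the array, where a level is near background and a fold is loosely set. The 2 isomerases are close relatives in sequence, and whether the probes of one could bind the mRNA of the other was not tested.

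Pmvk, the kinase that adds the second phosphate to mevalonate, was at 7.62 and 7.51 in the undifferentiated arrays, 8.66, 8.47, 8.71 and 8.60 in the differentiated arrays, 8.30 and 8.33 under A-C/EBP and 8.34 and 8.23 under 5-AZA. It rose 2.06-fold (1.04 ± 0.10 (SE), adjusted p = 0.000118), and the 4 treated arrays lay between the undifferentiated and the differentiated ones. Mvd, the decarboxylase that follows, was at 7.31 and 7.06 in the undifferentiated arrays, 8.60, 8.21, 8.08 and 8.18 in the differentiated arrays, 8.50 and 8.01 under A-C/EBP and 7.66 and 7.28 under 5-AZA. It rose 2.12-fold (1.08 ± 0.19 (SE), adjusted p = 0.00312), and the A-C/EBP arrays overlapped the differentiated ones while the 5-AZA arrays overlapped the undifferentiated ones. Fdps, which makes farnesyl diphosphate, was at 7.31 and 6.87 in the undifferentiated arrays, 7.84, 7.58, 7.53 and 7.62 in the differentiated arrays, 7.60 and 7.45 under A-C/EBP and 7.43 and 7.17 under 5-AZA. Its arrays did not overlap either and it rose 1.47-fold (0.56 ± 0.15 (SE), adjusted p = 0.0268). This averages a bright probe set, which differed by 0.77, and one below the array median in all 10 arrays, which differed by 0.34. The Fdps call was lost without undifferentiated replicate 2 (0.34) or without differentiated replicate 1 or 4 (adjusted p = 0.0619 and 0.0536).

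The other 3 mevalonate genes did not pass. Hmgcs1, the synthase that makes the precursor of mevalonate, was at 9.65 and 9.89 in the undifferentiated arrays, 10.09, 9.95, 9.66 and 9.96 in the differentiated arrays, 10.07 and 10.38 under A-C/EBP and 9.49 and 8.85 under 5-AZA. Its undifferentiated and differentiated arrays overlapped, with a difference of 0.14 ± 0.19 and a 95% interval of -0.27 to 0.56. Mvk, the first mevalonate kinase, differed by 0.35 ± 0.14, and Ggps1, which draws farnesyl diphosphate off towards geranylgeranyl groups, by 0.36 ± 0.13. Both were higher in every differentiated array.

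Of the 12 genes of the sterol steps 7 rose and 1 fell, with a median difference of 0.56. Fdft1, squalene synthase, was at 7.42 and 7.45 in the undifferentiated arrays, 8.13, 7.94, 7.93 and 8.03 in the differentiated arrays, 7.91 and 7.89 under A-C/EBP and 7.80 and 7.86 under 5-AZA. It rose 1.49-fold (0.58 ± 0.09 (SE), adjusted p = 0.00186), an average over 4 probe sets of which the 2 bright ones differed by 1.44 and 1.32 and the 2 dim ones by -0.26 and -0.19. The brightest probe set alone gave 1.44, adjusted p = 0.000207. Cyp51, the lanosterol demethylase, was at 7.59 and 7.42 in the undifferentiated arrays, 8.76, 8.12, 8.29 and 8.53 in the differentiated arrays, 8.48 and 8.34 under A-C/EBP and 7.88 and 7.41 under 5-AZA. It rose 1.9-fold (0.93 ± 0.18 (SE), adjusted p = 0.00659), and without undifferentiated replicate 2 the difference was 0.84, adjusted p = 0.068. For Cyp51 as for Mvd, the arrays with 5-AZA overlapped the undifferentiated arrays and those with A-C/EBP the differentiated ones.

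Tm7sf2 and Lbr encode reductases that can act on the same double bond of the sterol ring, and they moved in opposite directions. Tm7sf2 was at 6.05 and 5.19 in the undifferentiated arrays, 8.24, 7.96, 7.54 and 7.85 in the differentiated arrays, 8.47 and 7.98 under A-C/EBP and 7.61 and 7.72 under 5-AZA. It rose 4.83-fold (2.27 ± 0.25 (SE), adjusted p = 0.000274), with both undifferentiated arrays below all 8 others. Lbr, the lamin B receptor, which also anchors chromatin at the nuclear envelope, was at 9.98 and 9.45 in the undifferentiated arrays, 8.79, 8.43, 8.15 and 8.46 in the differentiated arrays, 8.32 and 8.31 under A-C/EBP and 8.21 and 7.40 under 5-AZA. It fell, by 2.39-fold (-1.26 ± 0.24 (SE), adjusted p = 0.00529), and was the 1 synthesis gene with both undifferentiated arrays above all 8 others. That call was lost without undifferentiated replicate 1 (-0.99, adjusted p = 0.081).

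Nsdhl, a dehydrogenase that takes part in removing methyl groups from the ring, was at 10.19 and 9.95 in the undifferentiated arrays, 11.26, 10.81, 10.75 and 11.01 in the differentiated arrays, 11.16 and 10.81 under A-C/EBP and 10.14 and 9.92 under 5-AZA. Its undifferentiated and 5-AZA arrays shared 1 range and its differentiated and A-C/EBP arrays another, and it rose 1.85-fold with differentiation (0.89 ± 0.16 (SE), adjusted p = 0.00451), a call lost without undifferentiated replicate 2 (adjusted p = 0.0567). Hsd17b7, the keto reductase of the same step, was at 6.86 and 6.86 in the undifferentiated arrays, 8.03, 7.71, 7.65 and 7.74 in the differentiated arrays, 7.78 and 7.62 under A-C/EBP and 7.37 and 7.19 under 5-AZA. It rose 1.89-fold (0.92 ± 0.12 (SE), adjusted p = 0.000714), with the 5-AZA arrays between the undifferentiated and the differentiated ones. The bright probe sets of Hsd17b7 differed by 1.02, 1.16 and 1.30 with differentiation and a dim one by 0.19. Dhcr7, the reductase that yields cholesterol, was at 8.46 and 8.69 in the undifferentiated arrays, 10.33, 10.05, 9.74 and 10.41 in the differentiated arrays, 9.92 and 9.79 under A-C/EBP and 9.95 and 9.44 under 5-AZA. It rose 2.95-fold (1.56 ± 0.20 (SE), adjusted p = 0.000614), and no treated array came down to the undifferentiated range.

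Sc5d, the desaturase that precedes Dhcr7, was at 7.13 and 6.76 in the undifferentiated arrays, 7.65, 7.25, 7.44 and 7.58 in the differentiated arrays, 8.33 and 8.59 under A-C/EBP and 6.81 and 6.71 under 5-AZA. The A-C/EBP arrays were the highest and the 5-AZA arrays were within or below the undifferentiated range. Sc5d rose 1.45-fold with differentiation (0.54 ± 0.15 (SE), adjusted p = 0.0315), which did not hold without undifferentiated replicate 2 (0.35, adjusted p = 0.306), or without differentiated replicate 1, 3 or 4 (adjusted p = 0.0747, 0.0526 and 0.0757). Of the genes that did not pass, Sqle (squalene epoxidase) differed by 0.48 ± 0.20, Msmo1 (the sterol methyl oxidase) by 0.50 ± 0.20, Lss (lanosterol synthase) by 0.31 ± 0.14 and Ebp (the sterol isomerase) by 0.17 ± 0.16. Lss and Msmo1 were higher in every differentiated array, whereas the arrays of Sqle and Ebp overlapped. Msmo1 passed with its brightest probe set alone (0.86, adjusted p = 0.00134).

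Among the 8 measured regulators 1 rose and 2 fell, and the median difference was -0.03. Insig2, which retains SCAP in the endoplasmic reticulum, was at 8.46 and 8.34 in the undifferentiated arrays, 9.61, 9.34, 10.03 and 9.80 in the differentiated arrays, 9.83 and 9.79 under A-C/EBP and 9.83 and 9.68 under 5-AZA. It rose 2.45-fold (1.30 ± 0.16 (SE), adjusted p = 0.000564), and all 8 arrays of differentiated cells, treated or not, lay above both undifferentiated arrays. Srebf1, which encodes the SREBP best known for fatty acid genes, was at 9.93 and 9.59 in the undifferentiated arrays, 9.40, 9.08, 8.93 and 9.24 in the differentiated arrays, 9.29 and 9.30 under A-C/EBP and 9.31 and 9.03 under 5-AZA. It fell by 1.52-fold (-0.60 ± 0.15 (SE), adjusted p = 0.0226), a call lost without undifferentiated replicate 1 (-0.43, adjusted p = 0.251). Mylip, a ubiquitin ligase that lowers lipoprotein receptors and is itself an LXR target, was at 8.56 and 8.08 in the undifferentiated arrays, 7.55, 6.97, 7.36 and 7.13 in the differentiated arrays, 7.70 and 7.46 under A-C/EBP and 7.56 and 7.84 under 5-AZA. It fell by 2.09-fold (-1.07 ± 0.19 (SE), adjusted p = 0.00336), also lost without undifferentiated replicate 1 (-0.82, adjusted p = 0.0557).

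The remaining regulators did not pass with differentiation. Srebf2, the SREBP best known for cholesterol genes, differed by -0.21 ± 0.33 with a 95% interval of -0.96 to 0.53, and Scap by -0.21 ± 0.11. Insig1, an SREBP target that also holds SREBP back, differed by 0.66 ± 0.32 and was higher in every differentiated array. Ch25h, which makes an oxysterol from cholesterol, differed by 0.59 ± 0.28, again higher in every differentiated array. Nr1h3, the LXR alpha receptor, was between 3.66 and 4.31 and below the median probe set in all 10 arrays, so that its difference of 0.14 ± 0.19 reads a signal near background.

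Of the 5 transport genes only Npc1 passed. Npc1, the membrane protein that lets cholesterol out of lysosomes, was at 5.71 and 5.33 in the undifferentiated arrays, 6.30, 5.92, 6.22 and 6.65 in the differentiated arrays, 6.63 and 6.49 under A-C/EBP and 6.79 and 6.71 under 5-AZA. It rose 1.68-fold (0.75 ± 0.18 (SE), adjusted p = 0.019), the undifferentiated arrays did not overlap any other, and the call was lost without undifferentiated replicate 2 (0.56, adjusted p = 0.193). Its soluble partner Npc2 differed by 0.27 ± 0.11 and was higher in every differentiated array. Stard4, a carrier of cholesterol in the cytosol, differed by 0.18 ± 0.21, and the exporters Abca1 and Abcg1 by 0.02 ± 0.18 and 0.13 ± 0.14. The arrays of these 3 genes overlapped.

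**Figure D2:**
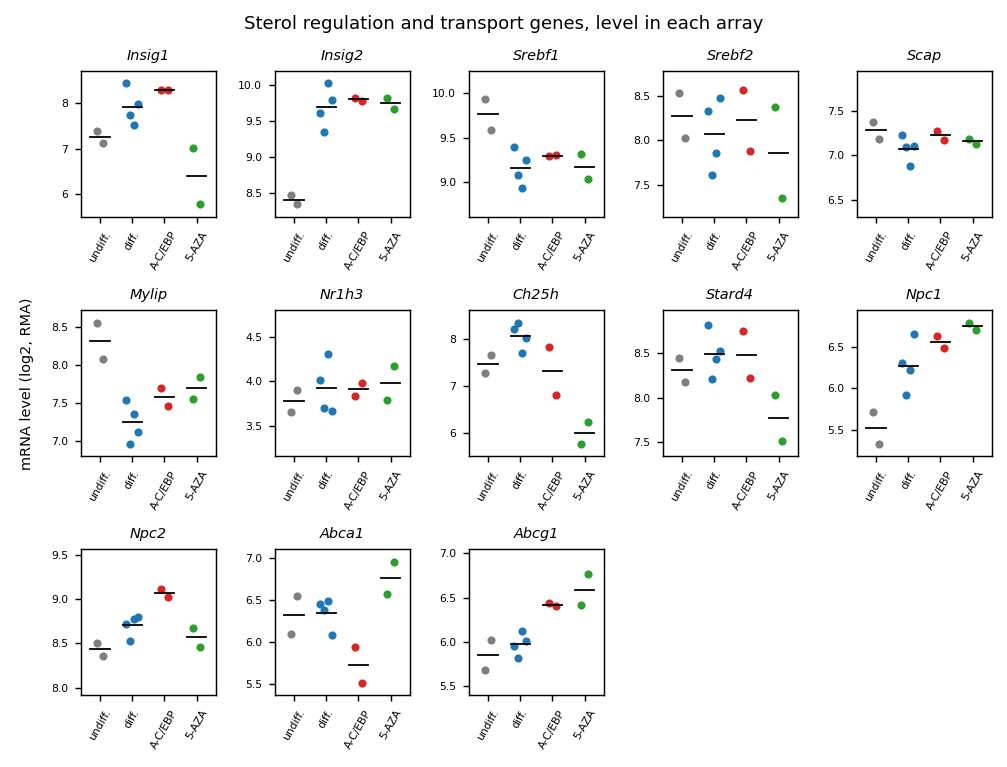
Level (log2, RMA) of each of the 13 measured regulation and transport genes in each array. Points are single arrays (2 undifferentiated, 4 differentiated, 2 A-C/EBP, 2 5-AZA), bars are condition means, and each panel has its own axis that does not start at 0. Insig2 and Npc1 are higher and Srebf1 and Mylip lower in all differentiated than in undifferentiated arrays, and both 5-AZA arrays are the lowest for Ch25h and Insig1.

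With A-C/EBP the 2 isomerase genes fell and Sc5d rose, and the pathway had no common direction. Of the 33 genes 1 rose, 2 fell and 30 did not pass against the differentiated arrays, where 1.49% of all genes rose and 0.583% fell, and the median difference was 0.01 over the 33 genes and over all genes. The synthesis genes were split in direction, 9 higher and 11 lower of 20 (7 and 13 after median centring or quantile normalization). Of all genes 52.7% were higher and 47.3% lower as deposited. An unadjusted p under 0.05 was reached by 8 of the 33 genes (24.2%) and by 13.6% of all genes. Both A-C/EBP arrays were above all differentiated arrays for 3 genes and below them for 5, against 12.6% and 8.81%, and means were higher by more than 0.5 for 1 gene and lower for 4, against 3.7% and 3.03%. Counted in either direction, 3 of 33 passed, against 2.07% of all genes. The same 4 differentiated arrays serve in this comparison, in that of 5-AZA and in that with undifferentiated cells, so the 3 sets of values are not independent of each other.

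Idi2, with the values given above, was lower by 7.56-fold (-2.92 ± 0.46 (SE), adjusted p = 0.0142). The A-C/EBP arrays lay apart from each other, replicate 2 within the undifferentiated range and replicate 1 between that range and the differentiated one, so that the difference was -3.95, adjusted p = 0.000344, without replicate 1 and -1.88, adjusted p = 0.0446, without replicate 2. Idi1 was lower by 1.59-fold (-0.67 ± 0.10 (SE), adjusted p = 0.0142), with both A-C/EBP arrays below all 4 differentiated arrays and above both undifferentiated arrays. Its call was lost without A-C/EBP replicate 2 (-0.53, adjusted p = 0.164) and with its brightest probe set alone (-0.71, adjusted p = 0.0586).

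Sc5d rose with A-C/EBP, 1.98-fold (0.98 ± 0.15 (SE), adjusted p = 0.0107). Both A-C/EBP arrays were above the other 8 arrays. Its 3 probe sets differed by 0.72, 1.71 and 0.52 in this comparison, all of them higher, but the call was lost with the brightest probe set alone (0.52, adjusted p = 0.322) and without A-C/EBP replicate 2 (0.85, adjusted p = 0.143). Without A-C/EBP replicate 2 the count of genes that passed was 1 in place of 3. Among genes that did not pass, Abca1 differed by -0.62 ± 0.18 (SE), adjusted p = 0.142, with both arrays below all differentiated arrays. Abcg1 and Npc2 differed by 0.44 ± 0.14 and 0.36 ± 0.11, with both arrays above all differentiated arrays, and Ch25h by -0.74 ± 0.28 with overlapping arrays. The bright probe set of Abcg1 differed by 0.39, and one below the array median in all 10 arrays by 0.50. For Npc2 the bright probe sets differed by 0.23 and 0.27 and the dimmer ones by 0.80 and 0.17.

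With 5-AZA every synthesis gene had a lower mean, although a single gene of the list passed the test. Against the differentiated arrays none of the 33 genes rose, 1 fell and 32 did not pass, where 0.17% of all genes rose and 0.115% fell. All 20 synthesis genes had a lower mean with 5-AZA, by 0.18 to 0.93 on the log2 scale with a median difference of -0.43, whereas 39.5% of all genes were lower. All 20 were also lower after median centring or quantile normalization, where 55.6% and 48.5% of all genes were lower. Among 33 genes, 20 had an unadjusted p under 0.05 (60.6%; 17 of them lower), against 9.1% of all genes. Means were lower by more than 0.5 for 11 genes and higher for 1, against 2.09% and 1.89% of all genes, and 0.286% of all genes passed in either direction.

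Both 5-AZA arrays were below all 4 differentiated arrays for 17 of the 33 genes and above them for 4, against 5.15% and 11.2% of all genes as deposited and 10.5% and 7.04% after median centring, when the counts were 19 and 3. Of the 20 synthesis genes 14 were below in every array, and 8 had means lower by more than 0.5. At the level of single probe sets, 36 of the 44 for synthesis genes were above the array median in every array, and all 36 were lower with 5-AZA, with a median difference of -0.61. Of the dimmer ones left out, those of Fdft1 (0.18 and 0.25) and Hsd17b7 (0.20) were higher. Those of Hmgcs1, Idi2, Fdps, Lss and Msmo1 were lower. The share among all probe sets of such brightness was not computed. Markers of cell state and of other cells also differed in the 5-AZA arrays. Ivl (involucrin), a protein of differentiating keratinocytes, was at 9.45 to 9.50 under 5-AZA against 10.72 to 11.11 in the differentiated arrays. Of the other listed markers of such cells, Krt1, Krt10, Lor, Sprr1a and Klk7, the 5-AZA and differentiated arrays overlapped. Of the 9 fibroblast markers Twist2 and Pdgfra were above every differentiated array, and the others overlapped. Pdgfra, at 4.80 and 4.59, was near the medians of the 5-AZA arrays, 4.69 and 4.78. The log2 of the 9 summed fibroblast markers was 9.63 to 10.33 under 5-AZA against 8.83 to 9.89, so that the sums overlapped. Their part in the lower synthesis genes was not tested.

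Nsdhl had the largest difference of the synthesis genes with 5-AZA, at -0.93 ± 0.16 (SE), adjusted p = 0.0572, and the 2 arrays, at 10.14 and 9.92, overlapped the undifferentiated ones. It passed after median centring (adjusted p = 0.0429), after quantile normalization (adjusted p = 0.0332), when the dimmest genes were left out (adjusted p = 0.0494) and with hybridization controls as a covariate (adjusted p = 0.0232). Mvd differed by -0.79 ± 0.19, Cyp51 by -0.78 ± 0.18, Hmgcs1 by -0.74 ± 0.19 and Sc5d by -0.72 ± 0.15. When single arrays were left out, the difference of Hmgcs1 ran from -1.06 to -0.43. For each of these 4 genes both 5-AZA arrays lay below all differentiated arrays, and the adjusted p was 0.161, 0.161, 0.201 and 0.107. Of them Sc5d passed after median centring and quantile normalization (adjusted p = 0.0498 and 0.04) and Cyp51 after quantile normalization (adjusted p = 0.0436). At the other end were Fdft1, at -0.18 ± 0.09, Tm7sf2, at -0.23 ± 0.25, and Idi2, at -0.25 ± 0.46, whose 95% intervals of -0.38 to 0.02, -0.79 to 0.33 and -1.27 to 0.77 include 0. The value of Fdft1 is a mean over 4 probe sets, of which the 2 bright ones differed by -0.55 and -0.61 and the 2 dim ones by 0.18 and 0.25.

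Ch25h was the gene that fell with 5-AZA. It was at 7.28 and 7.66 in the undifferentiated arrays, 8.19, 8.34, 7.69 and 8.01 in the differentiated arrays, 7.83 and 6.81 under A-C/EBP and 5.79 and 6.25 under 5-AZA. Both 5-AZA arrays were below the other 8 arrays, and Ch25h was 4.12-fold lower than in differentiated cells (-2.04 ± 0.28 (SE), adjusted p = 0.0305). The size held but the call was lost without 5-AZA replicate 1 (-1.81, adjusted p = 0.126) or 2 (-2.27, adjusted p = 0.103), or without differentiated replicate 1, 2 or 4 (adjusted p = 0.0847, 0.0798 and 0.0722). The number of genes that passed was 0 without 5-AZA replicate 2 and without differentiated replicate 1, 2 or 4, and without 5-AZA replicate 1 it was 1, Insig1 (-2.12, adjusted p = 0.0418), whose difference was -0.89 without 5-AZA replicate 2.

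Insig1 was at 7.37 and 7.13 in the undifferentiated arrays, 8.42, 7.73, 7.51 and 7.98 in the differentiated arrays, 8.26 and 8.27 under A-C/EBP and 7.02 and 5.78 under 5-AZA. The 5-AZA arrays were the 2 lowest and lay far apart, and the difference of -1.51 ± 0.32 did not pass (adjusted p = 0.125). Insig2, which had risen with differentiation, differed by 0.06 ± 0.16, Srebf1 by 0.01 ± 0.15, Srebf2 by -0.21 ± 0.33 and Scap by 0.08 ± 0.11. The regulators as a group showed no common direction, with a median of 0.03.

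Of the 5 transport genes Abcg1, Npc1 and Abca1 had higher means with 5-AZA, and Stard4 and Npc2 had lower ones. Abcg1 differed by 0.61 ± 0.14 (SE), adjusted p = 0.146, Npc1 by 0.48 ± 0.18 and Abca1 by 0.41 ± 0.18, and both 5-AZA arrays were above all 4 differentiated arrays for each. The same held for Mylip, at 0.45 ± 0.19. These 4 were the genes of the list higher in every array, 12.1% of those measured, close to the 11.2% of all genes. None of the 4 passed. Stard4 went with the synthesis genes, at -0.73 ± 0.21 (SE), adjusted p = 0.281, and Npc2 differed by -0.13 ± 0.11 with overlapping arrays. The bright probe sets of Npc2 differed by 0.03 and 0.08 and the dimmer ones by -0.69 and 0.04.

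**Figure D3:**
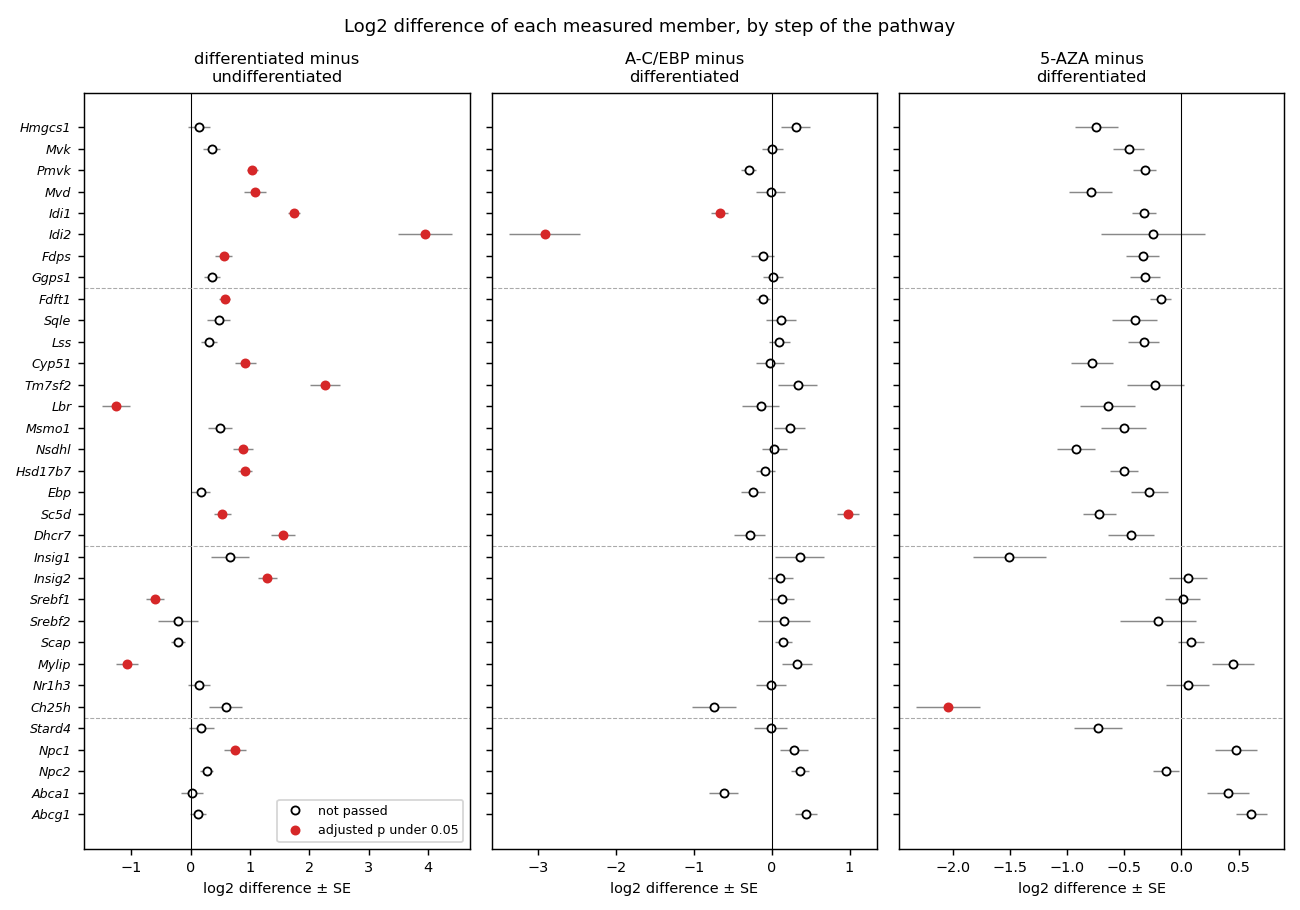
Log2 difference ± standard error of each of the 33 measured genes in 3 comparisons, from 1 limma fit to 10 arrays; dashed lines part the mevalonate, sterol, regulation and transport steps and each panel has its own scale. Filled points passed an adjusted p of 0.05: 17 with differentiation, 3 with A-C/EBP and 1, Ch25h, with 5-AZA, where every point of the first 20 genes lies to the left of 0.

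Whether the 2 treatments differ from each other was tested directly, A-C/EBP minus 5-AZA, a contrast in which the shared differentiated arrays cancel. Of the 33 genes 4 were higher with A-C/EBP and 2 lower past the threshold, against 2.06% and 1.13% of all genes, and the median difference was 0.36. Of the 20 synthesis genes 18 were higher with A-C/EBP (17 after quantile normalization), against 43.7% of all genes (48.8% after quantile normalization). For 15 of the 20, both A-C/EBP arrays were above both 5-AZA arrays, a separation found for 18.2% of all genes. Over the 33 genes it was found for 19, and the reverse for 4, against 25.2%. Means differed by more than 0.5 upward for 12 genes and downward for 2, against 5.34% and 4.68%, and 3.19% of all genes passed in either direction.

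Sc5d was 3.25-fold higher with A-C/EBP than with 5-AZA (1.70 ± 0.17 (SE), adjusted p = 0.00111), and this call was kept whichever array was left out. Insig1 was 3.64-fold higher (1.87 ± 0.37 (SE), adjusted p = 0.0257), Hmgcs1 2.08-fold higher (1.05 ± 0.22 (SE), adjusted p = 0.0301) and Nsdhl 1.94-fold higher (0.96 ± 0.19 (SE), adjusted p = 0.0257). Idi2 was 6.36-fold lower (-2.67 ± 0.53 (SE), adjusted p = 0.026). The sixth was the exporter Abca1, which was at 6.10 and 6.55 in the undifferentiated arrays, 6.45, 6.38, 6.48 and 6.08 in the differentiated arrays, 5.94 and 5.52 under A-C/EBP and 6.56 and 6.95 under 5-AZA. It was 2.04-fold lower with A-C/EBP than with 5-AZA (-1.03 ± 0.21 (SE), adjusted p = 0.0316), the A-C/EBP arrays being the 2 lowest and the 5-AZA arrays the 2 highest of all 10.

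Apart from Sc5d these calls rested on single arrays. The count of 6 became 1 without 5-AZA replicate 2, 3 without A-C/EBP replicate 1 and 2 without A-C/EBP replicate 2, and 1 when the 2 treatments were fitted alone. Without 5-AZA replicate 2 the differences were 1.25, adjusted p = 0.13, for Insig1, 0.74, adjusted p = 0.188, for Hmgcs1, 0.85, adjusted p = 0.177, for Nsdhl, -2.48, adjusted p = 0.168, for Idi2, and -0.83, adjusted p = 0.22, for Abca1. Without A-C/EBP replicate 2 that of Idi2 was -1.64, adjusted p = 0.0582, and that of Abca1 -0.81, adjusted p = 0.219. Further losses followed the omission of 5-AZA replicate 1 (Idi2, Nsdhl), A-C/EBP replicate 1 (Hmgcs1, Nsdhl, Insig1), A-C/EBP replicate 2 (also Hmgcs1, Nsdhl, Insig1), differentiated replicate 1 (Abca1) and differentiated replicate 4 (Hmgcs1), with adjusted p from 0.0515 to 0.204.

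Neighbouring pathways were read through lists of other genes, with differentiation, where 6.64% of all genes rose and 9.13% fell. Of 16 measured genes of the isoprenoid branches none rose and 3 fell, namely Rabggtb (-0.49 ± 0.10, adjusted p = 0.00609) and Rabggta, subunits of the enzyme that attaches geranylgeranyl groups to Rab proteins, and Coq7, of ubiquinone synthesis. Of 16 fatty acid genes controlled by SREBP 4 rose and 1 fell. They included Pnpla3, a lipid droplet hydrolase (1.79 ± 0.12, adjusted p = 2.41e-05), Scd1, the stearoyl-CoA desaturase (2.70 ± 0.40, adjusted p = 0.00137), and Me1, malic enzyme (0.92 ± 0.14, adjusted p = 0.00173). The median of that list was -0.04, near the -0.01 of all genes, and 3 of the 4 that rose did so by more than 1. None of 15 genes of SREBP processing rose and 1, Nfyb, fell (-0.75 ± 0.16, adjusted p = 0.00882). Of 28 other genes of sterol transport, storage and modification 7 rose and none fell, led by Gramd1a, which moves cholesterol from the plasma membrane (1.46 ± 0.14, adjusted p = 0.000131), Sult2b1, which makes cholesterol sulfate (1.02 ± 0.14, adjusted p = 0.00084), and Stard5, a sterol carrier (1.02 ± 0.20, adjusted p = 0.00675).

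With 5-AZA no gene of these 4 lists passed, where 0.286% of all genes did. The median of the fatty acid list was -0.33, close to the -0.33 of the mevalonate genes, while those of the isoprenoid, SREBP processing and other sterol lists were 0.04, -0.08 and 0.04, beside 0.04 over all genes. With A-C/EBP the oxysterol-binding relatives Osbpl3 (0.62 ± 0.11, adjusted p = 0.025) and Osbpl2 (0.50 ± 0.11, adjusted p = 0.0428) rose and no other gene of the lists passed. Among all genes 1.49% rose and 0.583% fell in this comparison. Between the treatments Elovl6, a fatty acid elongase, was higher with A-C/EBP (0.96 ± 0.19, adjusted p = 0.0257), as were Osbpl2 and Osbpl3, and Pnpla3 (-0.66 ± 0.14, adjusted p = 0.035) and Gramd1a (-0.72 ± 0.16, adjusted p = 0.0429) were lower. Of all genes 2.06% were higher and 1.13% lower past the threshold.

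**Figure D4:**
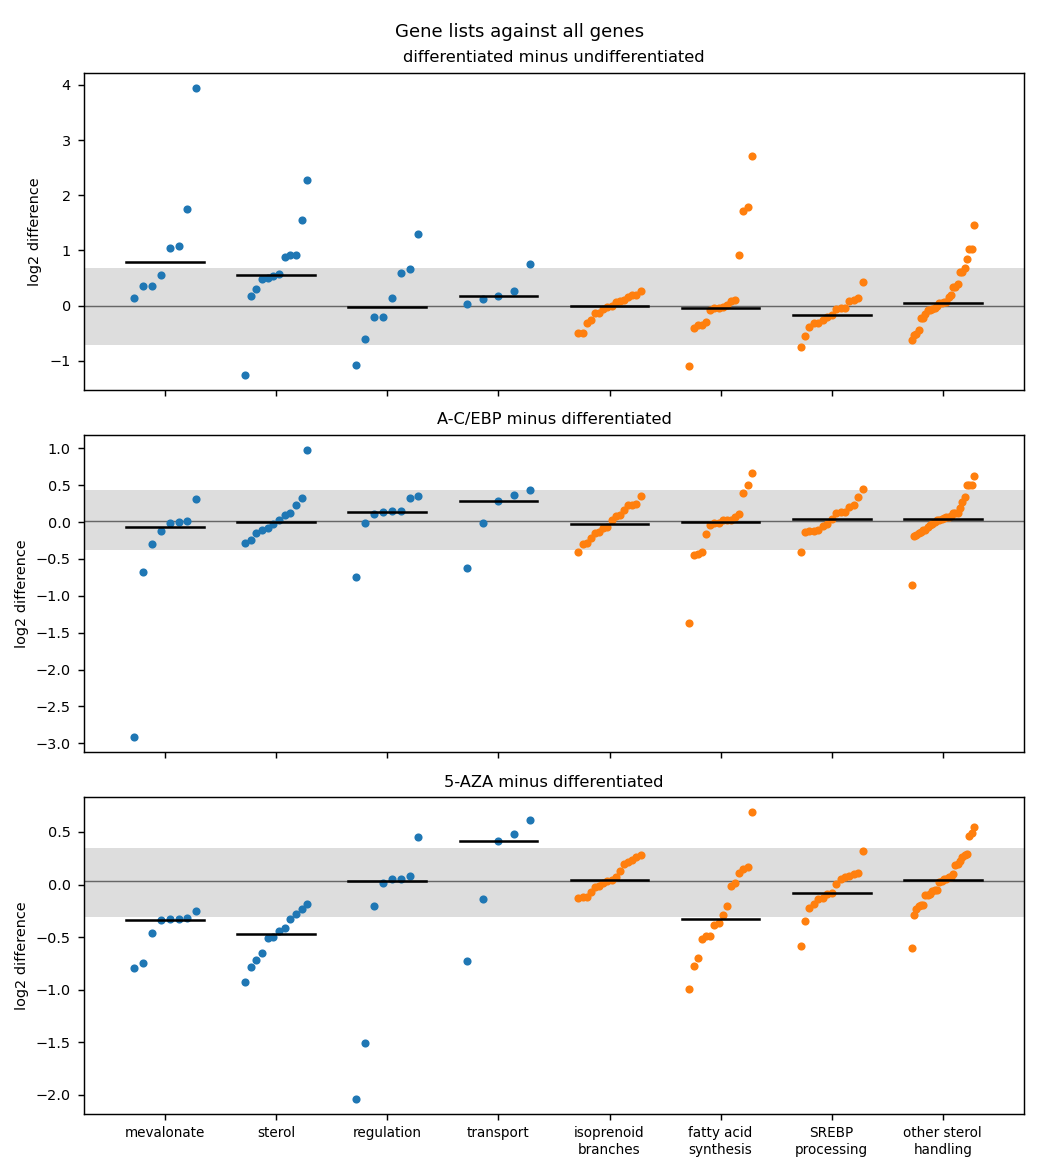
Log2 difference of each gene (points) in the 4 steps of the cholesterol list (blue) and in 4 other lists (orange) for 3 comparisons; short bars are list medians, the thin line is the median of all genes and the grey band holds their 5th to 95th percentiles. With 5-AZA all 20 mevalonate and sterol genes lie below the line, and the fatty acid list has a median of -0.33.

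Arrays were alike in scale, with medians of 4.64 to 4.78 and correlations between replicates of 0.990 to 0.996, and no 2 arrays were identical. All 7 measured keratinocyte markers were above the array median in every array. Melanocyte markers were also present in every condition (mean level 8.12 to 8.94), and in bulk samples such as these fewer cells of a type and less RNA per cell cannot be told apart. Of 5 measured sebocyte markers Mc5r, Elovl3 and Far2 were below the array median in every array. The other 2, Scd3 and Cidea, were higher in every differentiated than in any undifferentiated array and lower in both A-C/EBP arrays than in any differentiated array, and Cidea was above every differentiated array under 5-AZA. The log2 of the summed sebocyte markers was 6.85 to 7.11 in undifferentiated, 9.58 to 10.35 in differentiated, 7.90 to 9.51 in A-C/EBP and 10.73 to 11.03 in 5-AZA arrays. Cidea alone made up most of the sum in the last 3 conditions, at 9.43 to 10.25, 7.48 to 9.36 and 10.66 to 10.97. The part of these markers in the differences of the synthesis genes with differentiation and in the fall of Idi2 with A-C/EBP was not tested. Krt1 and Krt10, keratins of differentiating cells, were above every differentiated array under A-C/EBP (10.21 and 10.95 for Krt1, against 8.38 to 9.17). Ivl and Sprr1a were above every differentiated array under A-C/EBP too, while Lor and Klk7 overlapped. Krt1 and Krt10 were also above every differentiated array in undifferentiated replicate 1 (9.18 and 8.33) and, by more, in replicate 2 (10.98 and 9.96). The other listed markers of differentiating cells did not share this. Ivl (9.72 and 10.38, against 10.72 to 11.11), Sprr1a and Klk7 were below every differentiated array in both undifferentiated arrays, and Lor overlapped. Without undifferentiated replicate 2 the calls of Fdps, Sc5d, Cyp51, Nsdhl and Npc1 with differentiation were lost. The log2 of the summed fibroblast markers was 8.40 to 9.19 in A-C/EBP and 8.76 to 9.12 in undifferentiated arrays, and the part of these markers in the results was not tested.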

How the data were processed

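Messenger RNA was measured with Affymetrix mouse arrays, 1 per sample. The authors made the deposited log2 values with RMA in Affymetrix Expression Console, per the submitters' processing notes (versions not given), which corrects background, normalizes across arrays and summarizes probes. Background correction and normalization compress differences of dim probe sets. Of 45101 probe sets 34958 have a single symbol, 932 several and 9211 none; the single-symbol ones were averaged per gene (69 probe sets for the 33 measured genes, 19 of them with more than 1), and no second normalization was applied. A single limma 3.58.1 fit (R 4.3.3; lmFit and eBayes, 6 residual degrees of freedom) took all 10 arrays with a mean per condition, and the two-sided p-values of 4 contrasts were adjusted by Benjamini-Hochberg over 18194 genes. The number of arrays limits the precision. Every measured gene of the list is named. Those that passed in any contrast have their value in every array, and up to 3 genes per other list and contrast are named by smallest adjusted p. The genes and lists were chosen with earlier results of these data known. Alternatives covered the probe set summary, dim genes, scaling, an intensity trend, a replicate block, the samples fitted, hybridization controls as a covariate, the methods' threshold for changes with differentiation (0.5 on the log2 scale), a larger one of 1, a plain t-test, and leaving out each array. The fit was tested on simulated data. All 33 measured genes matched RefSeq by gene number.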

Additional observations from a re-analysis of the deposited data

How the results depend on the processing

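No member's called difference changed sign in any setting; of the 2624 values recomputed for single genes 2504 stayed on the same side of the threshold, 69 fell short of it and 51 newly passed it. Differences that had not passed could change sign. With differentiation the 17 genes that passed became 5 under a plain t-test with adjustment and 9 when means had to differ by more than 1 without a test, and 12 to 18 when each array was left out. With A-C/EBP the 3 became 1 with the brightest probe set, 0 under the t-test with adjustment and 7 without it, 5 and 1 for means differing by more than 0.5 and 1, and 1 to 3 without single arrays. With 5-AZA the 1 became 2 without the dimmest genes, 3 after median centring, 4 after quantile normalization, 2 with hybridization controls as a covariate, 0 and 15 under the t-test with and without adjustment, 12 and 2 for means differing by more than 0.5 and 1, and 0 to 1 without single arrays. Between the treatments the 6 became 1 with only these conditions fitted, 12 with the covariate, 0 and 2 under the t-test with and without adjustment, 14 for means differing by more than 0.5, and 1 to 6 without single arrays. The cause was not tested. Where the t-test called 0 genes with adjustment, it called none of all genes either.

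With the replicate number as a block 18 genes passed with differentiation, 4 with A-C/EBP, 9 with 5-AZA (1 higher, Npc1, and 8 lower, namely Mvk, Mvd, Cyp51, Nsdhl, Hsd17b7, Insig1, Stard4 and Ch25h) and 14 between the treatments, and Sc5d no longer passed with differentiation (adjusted p = 0.075). The labels share only numbers 1 and 2 across conditions, and nothing says that a number marks a shared animal or day. The differences between replicates 1 and 2 correlated positively across genes for every pair of conditions (0.23 to 0.47), so this is a hint from the data and the numbers were not taken as pairs. Counts of genes separated in every array were set up as a result after seeing the data. Over their alternatives they ran from 16 to 24 with differentiation (21 as given) and from 14 to 23 with 5-AZA (17 as given). The lowest counts, 16 and 14, were of 30 genes in place of 33. The share of all genes moved too, from 14.1% to 24.3% with differentiation and from 4.94% to 18.9% with 5-AZA. The count of 23 came without 5-AZA replicate 1, where the share was 18.9%. Groups of 2 arrays limit what could pass.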

Other observations

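Probe sets of the same gene did not always agree. For Lss the bright probe set differed by -0.29 with A-C/EBP and a dimmer one by 0.60, and with 5-AZA by -0.24 and -0.73. For Sc5d the dimmest of 3 probe sets differed by -0.01 with differentiation, and the others by 0.53 and 1.08. Both 5-AZA arrays were above all 4 differentiated arrays for Cidea, a lipid droplet protein (10.66 and 10.97 against 9.43 to 10.25), while all 20 synthesis genes had lower means.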
